A study of Homo sapiens with 2 samples.

Results

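The ubiquitin-specific proteases (USPs) were examined in KASUMI-1, an established line of human acute myeloid leukaemia with a RUNX1-RUNX1T1 fusion gene. Members were the genes of the deposited table named USP with a number and an optional X or L, together with USPL1. USP17L genes and pseudogenes were left out. This gave 52 genes of 50464 gene symbols. Both groups received a lentivirus. Its label was pccl in the group used as control and USP6 in the other. The sources used here give neither the time after infection, nor any selection of infected cells, nor the form of the introduced USP6. Each group was 1 library from 1 cell line, so differences could not be set against replicates and were not tested. The column totals were 12306442 counts for pccl and 12518795 for USP6.

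USPs are the largest family of deubiquitinases, cysteine proteases that cut ubiquitin from proteins or take ubiquitin chains apart. They oppose the ubiquitin ligases and so set how long a substrate lasts, where it goes or what it binds. In blood cells members of the family act on the p53-MDM2 pair, on histones H2A and H2B, on DNA repair factors and at the proteasome. USP6 is found in hominoid primates and arose by fusion of USP32 sequence, which gave the protease, with sequence of the TBC1D3 family. The series title names USP6 as a deubiquitinase that stabilises RUNX1 fusion proteins, which mRNA counts do not measure.

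The cysteine of the active site lies in a short conserved stretch, the cysteine box. It is shown for USP6 and its parent, for the 5 expressed members with the largest log2 ratio of FPKM in either direction (1 FPKM added to each value), and for the paralogs USP46 and USP28. Each run has 33 coding bases from a GENCODE release 29 transcript, and capitals mark the codon of that cysteine.
USP6: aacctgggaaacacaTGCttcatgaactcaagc
USP32: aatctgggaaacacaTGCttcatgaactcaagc
USP7: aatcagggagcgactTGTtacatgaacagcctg
USP10: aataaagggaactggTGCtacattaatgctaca
USP12: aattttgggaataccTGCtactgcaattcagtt
USP46: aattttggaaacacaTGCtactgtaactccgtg
USP25: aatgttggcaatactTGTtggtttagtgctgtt
USP28: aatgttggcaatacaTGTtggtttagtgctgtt
USP14: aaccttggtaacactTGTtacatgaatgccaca
USP6 and USP32 differed at 1 of the 33 bases, USP25 and USP28 at 1, USP12 and USP46 at 7, and USP7 and USP10 at 18. The pattern searched had asparagine at the start, cysteine in the sixth place and a limited choice of amino acids at some other places. It was found in the longest coding sequence of 48 members. The other 4, USP39, USP53, USP54 and USPL1, did not match the whole pattern, which does not show that they lack the cysteine. On GRCh38 the USP6 box lies within a single coding exon at chr17:5142035-5142067 (plus strand) and that of USP32 at chr17:60211450-60211482 (minus strand).

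USP6 was higher in the USP6 library, and its parent USP32 was lower. The table listed USP6 (ENSG00000129204, chromosome 17 from 5116438 to 5175034) at 8 counts for pccl and 70 counts for USP6. In FPKM, which divides counts by gene length and column total, these were 0.0396 and 0.340, a ratio of 8.60 (95% counting interval 4.13 to 20.7). Both values were under 1 FPKM, the level taken here as expressed. USP32 (ENSG00000170832, chromosome 17 from 60179094 to 60422470) had 354 and 147 counts, or 2.65 and 1.08 FPKM, 2.45-fold lower (2.02 to 2.99). Within the USP6 library USP32 thus remained above USP6 per gene length, as used in the deposited FPKM. If the 70 counts came from a construct of another length, this ranking and the place of USP6 under 1 FPKM could differ. Intervals are exact (Clopper-Pearson) and cover counting error alone. Reads copied by PCR from the same molecule are not independent, so the intervals may be too narrow. Whether reads of the viral construct were counted as USP6 was not tested.

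Reads of USP6 and USP32 can be told apart only in part. The USP32-derived part of USP6, 64.3% of its coding sequence of 4218 bases, was 96.5% identical to USP32 over 2712 aligned bases. The longest identical run was 175 bases, from position 2496 of the USP6 and 3102 of the USP32 coding sequence. In the 90 bases that held most differences, shown next with differing bases in capitals, there were 8 (USP6 from 2747 to 2836, USP32 from 3353 to 3442, counted from the start codon).
USP6: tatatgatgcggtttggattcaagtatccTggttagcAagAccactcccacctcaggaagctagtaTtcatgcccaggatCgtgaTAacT
USP32: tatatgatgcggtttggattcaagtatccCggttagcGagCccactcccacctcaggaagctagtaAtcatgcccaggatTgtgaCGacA
Of all distinct stretches of 50 bases in the annotated USP6 transcripts, 13.7% also occurred in transcripts of other genes, and 4.98% in USP32. For USP32 the shares were 18.3% and, with USP6, 7.27%. The sources used here do not give the read length or the treatment of reads with several matches, so both counts are uncertain.

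Marker genes were checked against the label of the cells. Of 8 markers of myeloid blasts 7 were expressed, RUNX1T1 among them with 3.30 and 2.63 FPKM, and CD38 had 0 and 8 counts. The 8 summed to 154 FPKM for pccl and 182 for USP6. On the log2 scale described below, CD34 and KIT were lower by at least 1 (11.4% of all expressed genes). MPO and ANPEP were higher by at least 1 (13.7%). Of 15 markers of other cell types 5 were expressed (CD3D, CD3E, CD2, CD79A and EPCAM), and the 15 summed to 48.9 FPKM for pccl and 49.6 for USP6. Of these, 3 were higher by at least 1 (13.7% of all expressed genes). They were CD3E with 75 and 372 counts, CD2 with 4 and 81, and CD79A with 78 and 321. ANPEP, CD3E and CD2 reached 1 FPKM in the USP6 library alone and so had to be higher there. HBG1, COL1A2 and KRT18 had 0 counts in both. Counts of the mitochondrial genome were 49.9% of the total for pccl and 45.6% for USP6, and this difference enters every FPKM ratio. The part of these markers in the USP results was not tested.

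Most of the family was expressed at low levels. Of 52 members, 35 reached 1 FPKM in the higher library, 24 of them in both, 10 in pccl alone and 1, USP40, in the USP6 library alone. Those 10 were USP2, USP3, USP8, USP10, USP15, USP18, USP25, USP37, USP45 and USP46. They passed only through the library in which they were high and so had to be lower in the other. USP40 in turn had to be higher in the USP6 library. The median of the 35 was 2.23 FPKM for pccl and 1.42 FPKM for USP6, against 2.79 and 2.82 FPKM over all 10153 expressed genes. USP1 was the most abundant member for pccl, with 9.08 FPKM. In the USP6 library that place was taken by USP7, with 6.31 FPKM, which had ranked at place 21 of the 35 for pccl.

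**Figure D1:**
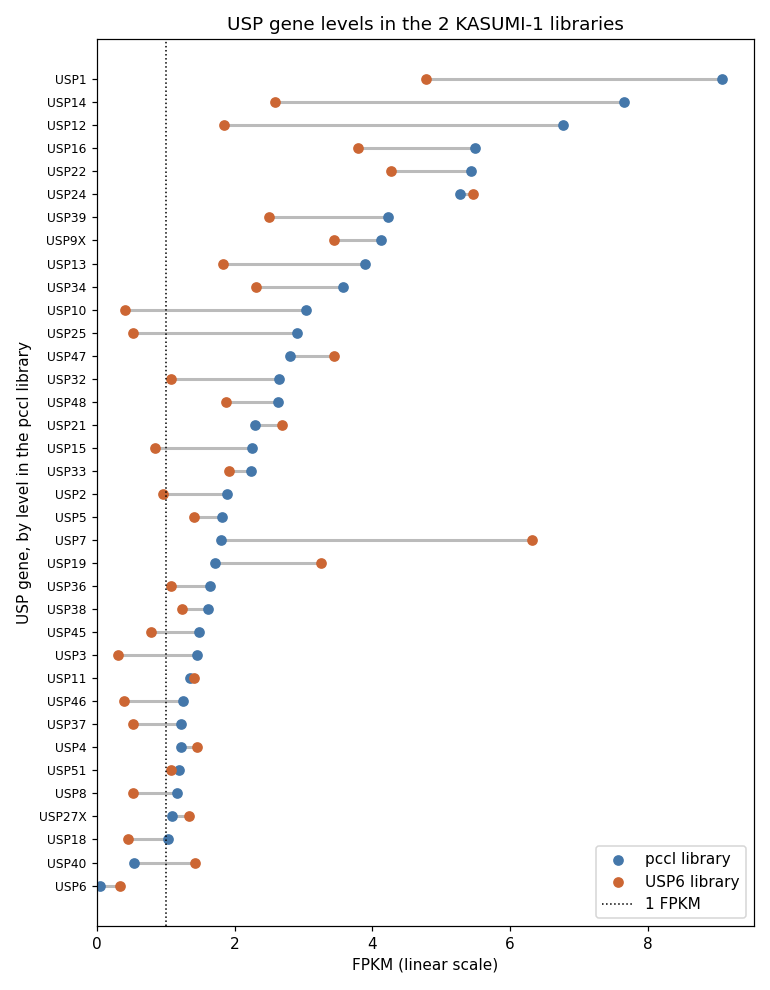
FPKM of the 35 expressed USP genes and of USP6 in the pccl library (blue) and the USP6 library (orange), 1 library each, joined by a grey line per gene. USP1, USP14 and USP12 lead the pccl library with 9.08, 7.65 and 6.77 FPKM, and USP7 leads the USP6 library with 6.31.

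Members were counted by the direction and size of their ratio. On the scale of log2((USP6 + 1)/(pccl + 1)) of FPKM, 4 of the 35 were lower by at least 1 (USP10, USP12, USP14 and USP25), and 11.4% of all expressed genes were. USP7 was the 1 member higher by at least 1, where 13.7% of all expressed genes were. The share of lower members was that of the background, and the share of higher members, 2.86%, was below it. At a limit of 1.5-fold on the same scale, 10 were lower (24.3% of all genes) and 3 higher (27.7% of all genes). In direction alone 26 of 35 were lower, against 47.6% of all genes, and 9 higher, against 52.4%. The pseudocount shrinks low genes. In plain FPKM, a comparison added after the data were seen, 12 members were lower by at least 2-fold (20.8% of all genes) and 2 higher, USP7 and USP40 (23.6% of all genes). These counts hold the members that the filter let pass through a single library. Over the 24 members with at least 1 FPKM in both libraries, likewise added after the data were seen, 16 were below 0 (47.5% of 7349 such genes) and 8 above (52.5%). Of the 24, USP12, USP13, USP14 and USP32 were lower by at least 2-fold in plain FPKM (14.8% of such genes), and USP7 was higher (17.3%). On the log2 scale with the pseudocount, 2 were lower by at least 1 (9.51% of such genes) and 1 higher (11.9%). The median log2 ratio was -0.44 over the 35 members and 0.06 over all expressed genes. Over the 24 members it was -0.22, and over all genes with at least 1 FPKM in both libraries 0.05.

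Summed over all 52 members, the family had 14831 counts for pccl and 10969 for USP6. As a share of the column total this was 1.38-fold lower (1.34 to 1.41). The sum of FPKM values was 105 and 74.4. In bulk RNA, fewer cells with a message and less message per cell cannot be told apart. The counting interval lay under 1 for 24 of the 35 expressed members, against 38.5% of all expressed genes, above 1 for 4, against 42.1%, and included 1 for 7, against 19.4%. The 10 members that passed only through pccl are among the 24.

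**Figure D2:**
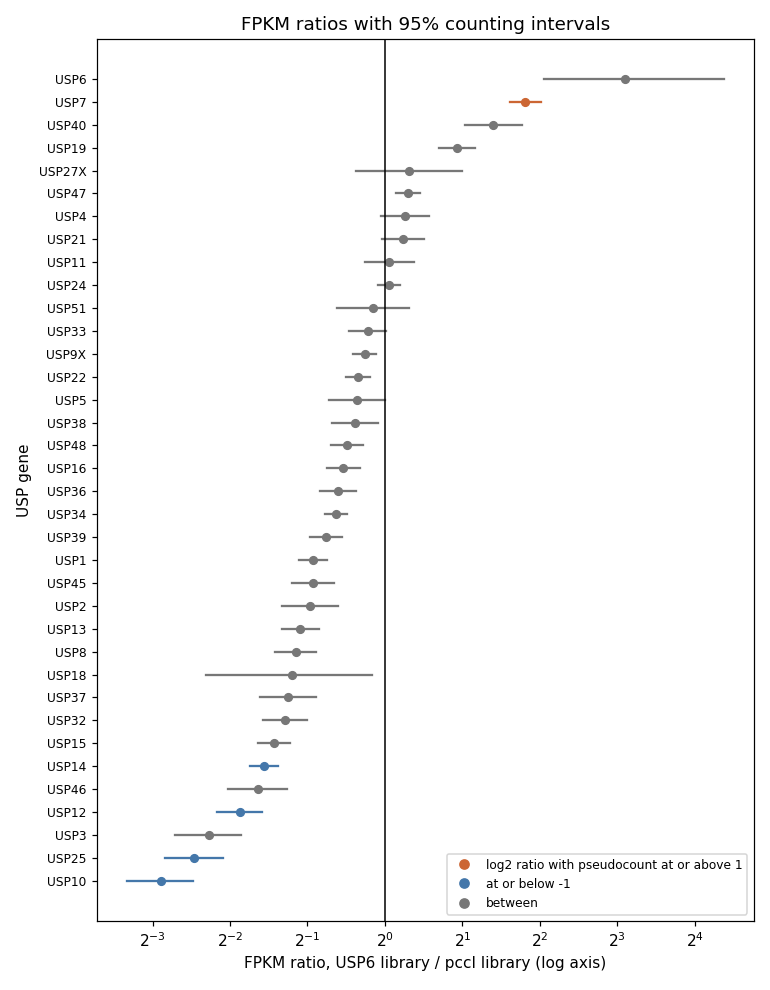
FPKM ratio of the USP6 to the pccl library on a log axis, for 35 expressed USP genes and USP6, with 95% counting intervals as bars. Colours mark a log2 ratio with the pseudocount at or past 1 or -1: USP7 lies to the right, and USP10, USP25, USP12 and USP14 to the left.

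The p53 and MDM2 deubiquitinases held the highest and the lowest log2 ratio with the pseudocount among the 35 expressed members. USP7, which removes ubiquitin from MDM2 and p53, had 279 counts for pccl and 997 for USP6. Its level was 1.80 and 6.31 FPKM, 3.51-fold higher (3.07 to 4.03), and 5.73% of expressed genes had a log2 ratio as high as its 1.39. USP7 (ENSG00000187555) lies on chromosome 16 from 8892094 to 8964514. USP10, which acts on p53 in the cytoplasm, went the other way on the same chromosome, from 84699978 to 84779922. It had 386 counts for pccl and 53 for USP6, 3.03 and 0.409 FPKM, 7.41-fold lower (5.55 to 10.1), and 4.15% of expressed genes had a ratio as low. USP2, which stabilises MDM2, had 192 and 100 counts, 1.95-fold lower (1.53 to 2.51). USP7 was high where USP10 and USP2 were low, and the sum of the 3 was 6.71 and 7.69 FPKM. USP10 and USP2 reached 1 FPKM for pccl alone, so the filter set their direction in advance.

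The USPs that work with the scaffold protein WDR48 were all lower. USP1, which cleaves ubiquitin from FANCD2 and PCNA, had 727 counts for pccl and 389 for USP6, 9.08 and 4.78 FPKM, 1.90-fold lower (1.68 to 2.16). USP12 had 458 and 127 counts, 6.77 and 1.85 FPKM, 3.67-fold lower (3.01 to 4.50). Its paralog USP46 had 245 and 80 counts, 1.24 and 0.400 FPKM, 3.12-fold lower (2.41 to 4.06). Summed over USP12 and USP46, the level was 8.02 FPKM for pccl and 2.25 for USP6. The scaffold itself went the opposite way, with WDR48 at 121 and 284 counts, 2.31-fold higher (1.86 to 2.88). WDR20, the further activator of USP12 and USP46, had 120 and 313 counts, 2.56-fold higher (2.07 to 3.19). WDR48 (0.766 and 1.77 FPKM) and WDR20 (0.447 and 1.15 FPKM) reached 1 FPKM in the USP6 library alone and so had to be higher there. USP46 reached it for pccl alone and so had to be lower in the USP6 library. The filter thus set part of this contrast in advance.

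Other members with a role in DNA repair were split. USP45, which acts on the nuclease subunit ERCC1, had 318 and 170 counts (1.90-fold lower, 1.57 to 2.31). USP48, which trims ubiquitin placed on H2A by BRCA1, had 457 and 332 counts (1.40-fold lower, 1.21 to 1.62). USP47, linked to base excision repair through DNA polymerase beta and the closest relative of USP7, had 628 and 787 counts (1.23-fold higher, 1.11 to 1.37). USP11, which supports homologous recombination, had 169 and 179 counts, with an interval of the ratio from 0.839 to 1.29. Of the 7 members grouped under DNA repair, WDR48 partners included, 5 had a log2 ratio below 0 (47.6% of all expressed genes) and 1 was lower by at least 1 (11.4%). The median of the 7 was -0.48, and -0.30 when centred on GC. USP45 and USP46 reached 1 FPKM for pccl alone, so the filter set their direction in advance.

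Deubiquitinases of the proteasome and of free chains were lower. USP14, which sits on the proteasome and trims its substrates, had 985 counts for pccl and 339 for USP6, 7.65 and 2.59 FPKM, 2.96-fold lower (2.61 to 3.35). Its exons overlap those of THOC1 on the opposite strand over 110 of 5987 bases, and THOC1 had 434 and 423 counts. USP13 had 457 and 218 counts, 2.13-fold lower (1.81 to 2.52). Its paralog USP5, which takes unanchored ubiquitin chains apart, had 148 and 117 counts, 1.29-fold lower, with an interval just clear of 1. The 3 summed to 13.4 FPKM for pccl and 5.83 for USP6. All 3 had a log2 ratio below 0 (47.6% of all expressed genes), and 1 was lower by at least 1 (11.4%).

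Among the histone deubiquitinases USP3 had the lowest ratio. This H2A enzyme had 276 and 58 counts, 4.84-fold lower (3.64 to 6.54). Its log2 ratio of -0.92 with the pseudocount stayed within the limit of 1. Of its exon bases 1760 of 7764 overlap USP3-AS1, which had 2 and 0 counts. USP16, an H2A enzyme needed by dividing cells, had 446 and 313 counts (1.45-fold lower, 1.25 to 1.68). USP22, the H2B deubiquitinase of the SAGA coactivator, had 809 and 646 counts (1.27-fold lower, 1.15 to 1.41). Its paralogs USP27X and USP51, both encoded on the X chromosome, had 35 and 44 and 84 and 77 counts, and both intervals included 1. That of USP21, another H2A enzyme, with 209 and 249 counts, did so too. USP42 and USP44 stayed under 1 FPKM, with 113 and 44 counts (2.61-fold lower, 1.83 to 3.79) for USP42 and 7 and 22 counts (3.09-fold higher, 1.27 to 8.56) for USP44. Of the 9 in this group 6 were expressed, 4 with a log2 ratio below 0 (47.6% of all expressed genes) and 2 above, and 0 reached a difference of 1. The 4 include USP3, which reached 1 FPKM for pccl alone and so had to be lower in the USP6 library.

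Members acting at endosomes, mitochondria and the endoplasmic reticulum went both ways. USP15, which opposes Parkin and acts in TGF-beta signalling, had 711 and 269 counts, 2.25 and 0.836 FPKM, 2.69-fold lower (2.33 to 3.11). USP8, which sorts receptors at the endosome, had 385 and 176 counts, 2.23-fold lower (1.86 to 2.68). USP19, which has a form anchored in the endoplasmic reticulum, had 227 and 440 counts, 1.71 and 3.25 FPKM, 1.91-fold higher (1.62 to 2.25). USP30 of the mitochondrial outer membrane lay under 1 FPKM, with 36 and 11 counts, as did USP35, with 12 and 27. Of the 3 expressed, 2 had a log2 ratio below 0 (47.6% of all expressed genes) and 1 above (52.4%). USP15 and USP8 reached 1 FPKM for pccl alone, so the filter set their direction in advance.

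Of 5 members linked to the cell cycle and to MYC 4 were expressed, all with a log2 ratio below 0 (47.6% of all expressed genes) and 0 lower by at least 1 (11.4%). With ratios adjusted for transcript GC as explained further on, their median was -0.03, and USP33 (0.20) and USP9X (0.13) lay above 0. USP37, which stabilises cyclin A, had 217 and 93 counts, 2.37-fold lower (1.85 to 3.06). USP36, a nucleolar enzyme that acts on MYC, had 394 and 263 counts, 1.52-fold lower (1.30 to 1.79). USP9X, which stabilises the survival factor MCL1, had 819 and 696 counts, 1.20-fold lower (1.08 to 1.33). USP33 had 324 and 282 counts and an interval that included 1. USP28, which opposes FBXW7 on MYC, had 78 and 34 counts and stayed under 1 FPKM. Its paralog USP25 had 389 counts for pccl and 72 for USP6, 2.91 and 0.529 FPKM, 5.50-fold lower (4.26 to 7.17). USP25 (ENSG00000155313) lies on chromosome 21 from 15730025 to 15880069, and 5.78% of expressed genes had a log2 ratio as low as its -1.35. USP37 and USP25 reached 1 FPKM for pccl alone, so the filter set their direction in advance.

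Members that do not act on ubiquitin, or lack catalysis, were at or under a few FPKM. USP39, an inactive member that serves in the spliceosome, had 505 and 304 counts, 4.23 and 2.51 FPKM, 1.69-fold lower (1.46 to 1.95). USP18, which removes the ubiquitin-like protein ISG15, had 27 and 12 counts, 2.29-fold lower (1.12 to 4.96). The interval was wide at this depth, and 23.4% of its 50-base stretches occur in other genes, its copy USP41 among them. USP18 reached 1 FPKM for pccl alone and so had to be lower in the USP6 library. The SUMO protease USPL1 had 65 and 72 counts and lay under 1 FPKM. USP53 and USP54, long listed as inactive, lay under 1 FPKM as well and in opposite directions, with 73 and 32 and 65 and 130 counts. Of the exon bases of USP54, 1528 of 9498 overlap PPP3CB-AS1 on the opposite strand, which had 90 and 201 counts.

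Among the remaining expressed members, USP40 had 88 and 235 counts, 0.540 and 1.42 FPKM, 2.63-fold higher (2.05 to 3.39). It reached 1 FPKM in the USP6 library alone and so had to be higher there. USP34, a large enzyme that acts in Wnt signalling, had 1085 and 712 counts, 1.55-fold lower (1.41 to 1.71). Its exons overlap AHSA2P on the opposite strand over 3263 of 18125 bases, and AHSA2P had 796 and 1448 counts. USP38 had 214 and 167 counts (1.30-fold lower, 1.06 to 1.61). USP24 and USP4 had intervals that included 1, with 836 and 881 and 160 and 195 counts.

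In all 17 members stayed under 1 FPKM in both libraries. USP26, USP29 and USP41 had no count in either, which for USP26 and USP29, X-linked and imprinted genes of the germ line, allows up to 3 counts per library. USP31 had 30 counts for pccl and 0 for USP6, a counting interval that starts at 7.77-fold lower, and its exons overlap AC127459.1, which had 93 and 38. USP49, the paralog of USP44, had 203 and 181 counts. USP20 had 89 and 95 counts. USP43 had 9 and 28 counts, and USP50, whose exons overlap USP8, 0 and 4. Of the 14 with a count, the interval lay under 1 for 5, above 1 for 5 and included 1 for 4. The shares over all genes under 1 FPKM are not given here, so these counts have no background.

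Shared sequence made some of these counts uncertain. In 12 members over 10% of the 50-base stretches occurred in other genes, with 31.3% in USP37, 17.7% in USP3, 15.2% in USP2 and 12.3% in USP22, and 19 members shared none.

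Close relatives were compared within paralog groups. In 8 of 19 paralog groups, at least a pair was expressed. The expressed genes had the same sign of the log2 ratio in 4 of these groups and differing signs in 4. In those last 4, each gene above 0 (USP4, USP11, USP21, USP24 and USP27X) had a counting interval that included 1, so opposite directions were not shown beyond counting error. USP12 and USP46 were both lower, as were USP5 and USP13, and USP16 and USP45. USP45 and USP46 passed the filter through pccl alone, so their direction was set in advance. The same holds for USP2 and USP15 in the groups of differing signs. A rate of sign agreement for other groups of genes is not given here, so these counts have no background. USP7 and USP47 were both higher, by 1.39 and 0.23 on the log2 scale. In the group of USP4, USP11 and USP15, USP15 was lower by 0.82, whereas USP4 and USP11 were above 0 by 0.15 and 0.03. The sign of USP11 turned under 5 of 6 other scalings, that of USP24 under 4, that of USP51 under 2, and those of USP33, USP38 and USP9X under 1 each.

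The ratio of a member went with the GC content of its transcript, as in the libraries at large. Spearman's rho of the ratio with GC was 0.41 across the 35 members, and across 10105 expressed genes with a GC value 0.40. These are descriptions across genes, which share the same pair of libraries. The members' longest transcripts had a median GC of 43.3%, below the 48.3% of all expressed genes. Of the 17 members below the members' median 16 were lower, against 10 of the 18 at or above it. The shares of all genes in these GC ranges are not given here. Both counts hold members that passed the filter through pccl alone. With each ratio centred on the trend with GC, the median was -0.19 over the members and -0.02 over all genes, and 23 members were below 0. The share of all genes below 0 on that scale is not given here. The 23 include the 10 members that passed the filter through pccl alone. On that scale 9.69% of all genes were higher by at least 1 and 9.85% lower. USP7 (1.57), USP10 (-1.36), USP12 (-1.09) and USP25 (-1.01) remained past the limit, and USP14 (-0.91) did not. USP19, with a GC of 59.1%, went from 0.65 to 0.17. The part of GC content in these results was not tested.

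**Figure D3:**
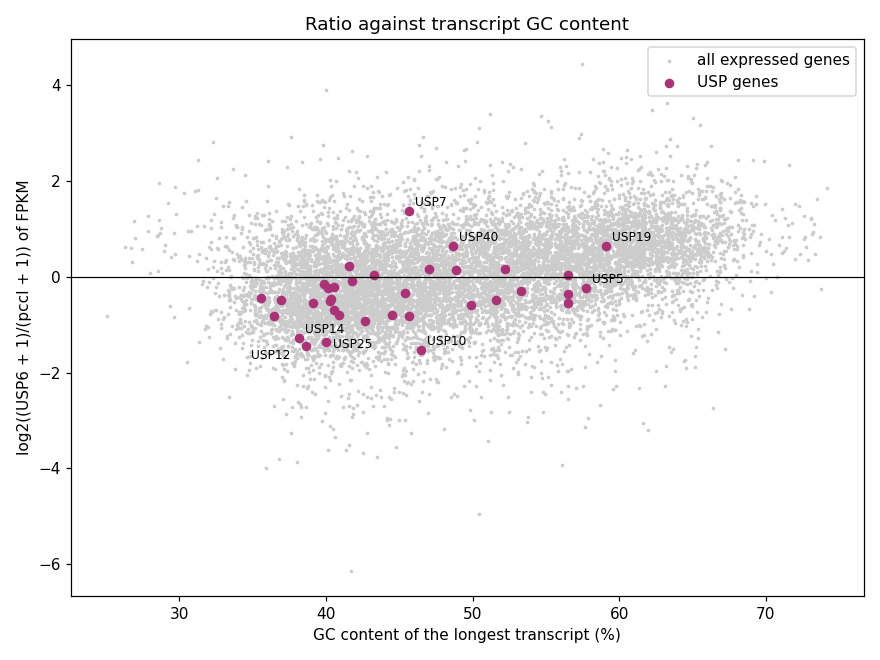
The log2 ratio of FPKM (pseudocount 1) against the GC content of the longest transcript in percent, for all expressed genes (grey) and the 35 expressed USP genes (purple). USP12, USP14 and USP25 lie at the GC-poor end and below 0, USP19 at the GC-rich end and above 0, and USP7 and USP10 in between.

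Genes of known USP partners were compared beside their enzymes. G3BP1, the stress granule protein that binds USP10, had 3238 counts for pccl and 318 for USP6, 10.4-fold lower (9.23 to 11.7), in the same direction as USP10. GMPS, the synthase that binds USP7, had 1606 and 584 counts, 13.9 and 4.98 FPKM, 2.80-fold lower (2.54 to 3.08), against the direction of USP7. Both ISG15 and UBA7, the activating enzyme of ISG15, were higher, whereas USP18, which undoes that modification, was lower. ISG15 had 82 and 350 counts (4.20-fold higher, 3.29 to 5.40) and UBA7 33 and 289 (8.61-fold higher, 5.99 to 12.7). The adaptors of USP8 were split, with STAM at 81 and 190 counts (2.31-fold higher, 1.77 to 3.03) and STAM2 at 108 and 58 (1.89-fold lower, 1.36 to 2.65). Of the SAGA module partners of USP22, ATXN7L3 had 478 and 447 counts and ENY2 693 and 709, both with intervals that included 1. ATXN7L3B, a relative of ATXN7L3, had 302 and 146 counts, 2.10-fold lower (1.72 to 2.58). UBA7 reached 1 FPKM in the USP6 library alone, and USP10, USP18 and STAM2 for pccl alone, which set their direction in advance. Among the 17 expressed partner genes, a log2 ratio of -1 or less was seen in 2 (11.4% of all expressed genes). A ratio of 1 or more was seen in 2 (13.7% of all expressed genes). Both counts were near the background. Their median was -0.13.

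**Figure D4:**
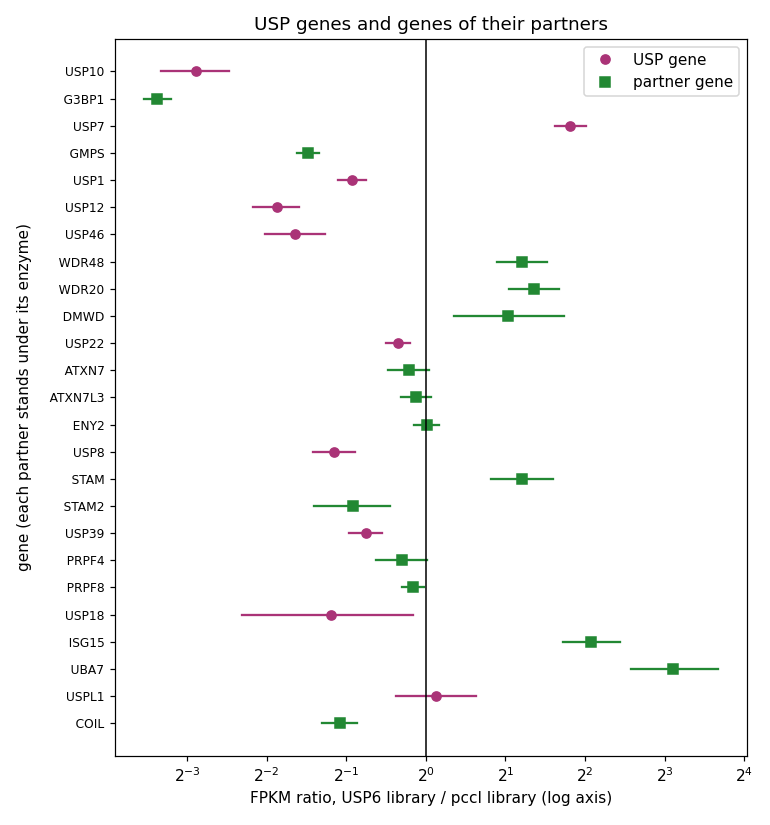
FPKM ratio of the USP6 to the pccl library on a log axis, with 95% counting intervals, for USP genes (purple circles) and partner genes (green squares) listed under them; WDR48 stands under USP1, USP12 and USP46. G3BP1 lies left with USP10, while WDR48 and WDR20 lie right and their 3 enzymes left.

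Genes listed under the other deubiquitinase families were set beside the USPs. The lists follow families and so also hold genes that are not themselves deubiquitinases, PSMD7 among the lower ones. Of 29 expressed genes, 6 were lower by at least 1 (11.4% of all expressed genes), 0 higher (13.7%), and 18 below 0 (47.6%), with a median of -0.25. The lower genes included BRCC3, which cuts lysine-63 chains in DNA repair complexes, with 250 and 20 counts (12.7-fold lower, 8.06 to 21.2). The proteasome lid gene PSMD14 had 852 and 364 counts (2.38-fold lower, 2.10 to 2.70), in the direction of USP14. OTUD4 had 712 and 123 counts (5.89-fold lower, 4.86 to 7.19). CYLD, which shares the USP fold and acts on NF-kappaB signalling, had 173 and 408 counts (2.32-fold higher, 1.94 to 2.79). BRCC3 and OTUD4 reached 1 FPKM for pccl alone and CYLD in the USP6 library alone, so the filter set their direction in advance. The difference between families was not tested.

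**Figure D5:**
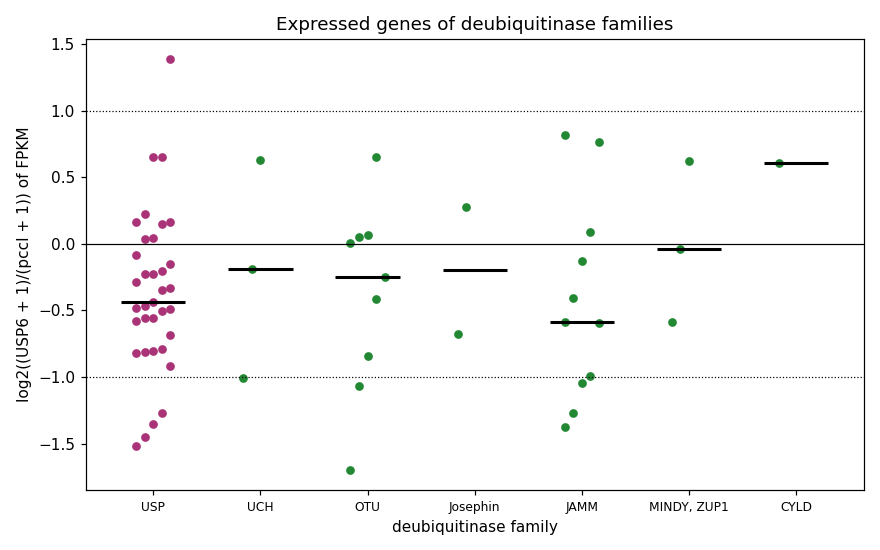
The log2 ratio of FPKM (pseudocount 1) for expressed genes of each deubiquitinase family, 1 point per gene, with the family median as a bar and dotted lines at 1 and -1. The median of the 35 USP genes is -0.44, and USP7 is the single point above 1.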

How the data were processed

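RNA sequencing of KASUMI-1 cells was deposited as a table of 50868 genes with counts and FPKM per library. Per the submitters' processing notes, HISAT2 2.0.4, StringTie 1.3.3b and edgeR were used, without the role of each. The sources used here do not give the build, annotation or strandedness. All 52 members had the locus of GENCODE release 29 (GRCh38). Counts, as the authors deposited them, are whole numbers per gene. The deposited FPKM equals count over gene length and column total, with the same implied length in both libraries within 0.1% in 100% of 16030 genes.

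Values of genes with the same symbol were summed. Expressed meant at least 1 FPKM in the higher library, and the pseudocount was 1 FPKM. With 0 residual degrees of freedom no test was made. Ratios carry exact conditional binomial 95% intervals. GC centring used a lowess trend (span 0.3). Shared sequence was counted in distinct stretches of 50 bases on both strands. The steps were tested on simulated Poisson counts. Members, roles, paralog groups and lists were chosen with earlier results of these data known. Every member could be named. From the other lists the 3 of largest ratio, or any past 2-fold, could be named. ATXN7L3, ENY2, STAM2, RUNX1T1, CD38, CD3D, EPCAM, the markers at 0 and genes that overlap members were named outside that rule, after their values were seen. R 4.3.3, edgeR 4.0.16, DESeq2 1.42.0 (size factors alone), Python 3.11.15, SciPy 1.17.1, statsmodels 0.14.6 and Biopython 1.88 were used.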

Additional observations from a re-analysis of the deposited data

How the results depend on the processing

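USP6 stayed higher and USP32 lower under each of the 6 other scalings, with ratios from 7.94 to 9.66 for USP6 and from 0.377 to 0.463 for USP32. The median of the members stayed below 0 under all settings run. It was -0.57 with a pseudocount of 0.1, -0.16 with 5, -0.61 in plain ratios and -0.19 centred on GC. Over the 24 members with 1 FPKM in both libraries it was -0.22. Members lower by at least 1 numbered 12 with a pseudocount of 0.1 (19.6% of all genes) and 12 in plain ratios (20.8%), 0 with 5 (2.96%), 2 of 7 with a filter of 5 FPKM (16.5%), 2 of 24 with 1 FPKM in both libraries (9.51%) and 10 at a 1.5-fold limit (24.3%). They numbered 9 of 41 with depth from nuclear genes (16.1%), which raises all values and so weakens the pseudocount and the filter. Members higher by at least 1 numbered 2 with a pseudocount of 0.1 (22.6%) and 2 in plain ratios (23.6%), 0 with 5 (3.59%) and 3 at the 1.5-fold limit (27.7%). Plain ratios and the filter in both libraries were chosen after the data were seen. The ratio of summed FPKM, 0.709 as deposited, was 0.661 with TMM, 0.675 with median-of-ratios factors, 0.654 with nuclear depth, 0.679 with the median ratio set to 0 and 0.796 with equal FPKM sums. Equal sums moved the median of all genes from 0.06 to 0.20 and the shares of all genes past the limit to 17.4% higher and 9.2% lower. Of the 35 expressed members, 29 kept their direction under the 6 scalings. No paired analysis was possible because each group holds 1 library. Leaving out a replicate was not possible either, and low counts limit USP6 (8 and 70) and USP18 (27 and 12).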
